A study of Gallus gallus with 6 samples.

Results

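Notch signalling genes were examined in RNA-seq of the embryonic chick gut, comparing the ceca, its paired blind outgrowths, with the region labelled interceca. The set holds 10 of the 17108 genes listed in the deposited tables: the receptors NOTCH1 and NOTCH2, the ligands DLL1, DLL4, JAG1 and JAG2, the receptor-modifying enzyme LFNG, and the effectors HES4, HES5 and HEY1. They were chosen by name, as a pathway, with earlier results of these data known. Of them, 9 were found under these symbols. HES4 is listed as hairy1, a synonym that the RefSeq gene table for the assembly GRCg7b gives for it. Both tissues came from guts of chick embryos at embryonic day 5, Hamburger-Hamilton stage 26, and neither group carried a labelled treatment or genotype. Each tissue had 3 libraries. The labels do not say whether a library came from 1 embryo or a pool, so the p-values below reflect the spread among these libraries alone, and that spread may be technical.

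Notch is a receptor that is activated by contact with a neighbouring cell. Ligands of the Delta-like and Jagged families on one cell bind Notch on the next, the receptor is cut, and its intracellular part enters the nucleus, where it acts with the DNA-binding protein RBPJ to switch on repressor genes of the HES and HEY families. Fringe enzymes such as LFNG add sugars to the receptor and change its response to Delta-like and Jagged ligands. In the mouse gut, Notch activity holds enteric neural crest progenitors back from becoming neurons and steers epithelial cells between absorptive and secretory fates, and Notch is also a regulator of blood vessels and smooth muscle.

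Levels are RPKM, in which a gene's reads are divided by its length and by the size of the library, as the authors deposited them. Being per length, they can be compared between genes. Recovered whole reads, obtained from the RPKM steps, ranged from 15741991 to 22802209 per library. Gut epithelial genes such as EPCAM and CDX2 were present in both tissues, while KRT8 and KRT18 were listed at 0 in all 6 libraries, and no list used here marks the ceca as such. Each log2 fold change sets ceca over interceca for log2(RPKM + 0.5) and comes from limma, fitted to 10678 genes that reached 1 RPKM in 3 or more libraries, with Benjamini-Hochberg adjustment over all of them and a threshold of 0.05. All Notch genes except HES5 had at least 1 RPKM in all 6 libraries and were tested.

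In the ceca, 3 of the 4 ligands and 2 of the 3 effectors were lower than in the interceca, while receptors, LFNG and DLL4 lay close together in the tissues. Of the 9 genes tested, 5 were lower in ceca (DLL1, JAG2, HEY1, HES4 and JAG1) and 0 were higher, where limma called 14.1% of all genes tested lower and 13.5% higher. The median log2 fold change of the 9 genes was -0.91, beside 0.01 over all genes tested. At an unadjusted p under 0.05, 1 gene, NOTCH2, was higher. With limma-voom on the recovered reads 2 genes, NOTCH1 and NOTCH2, were higher and the same 5 lower, where it called 15.6% of all genes higher and 14.4% lower. With the replicate number as a block NOTCH2 was higher and the same 5 lower, where 17.6% of all genes were higher and 17.7% lower. The 3 libraries of ceca lay below all 3 of interceca in the 5 called genes, a pattern that 21.1% of all genes tested showed, and above them in NOTCH1 and NOTCH2, a pattern of 23.0% of all genes tested.

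**Figure D1:**
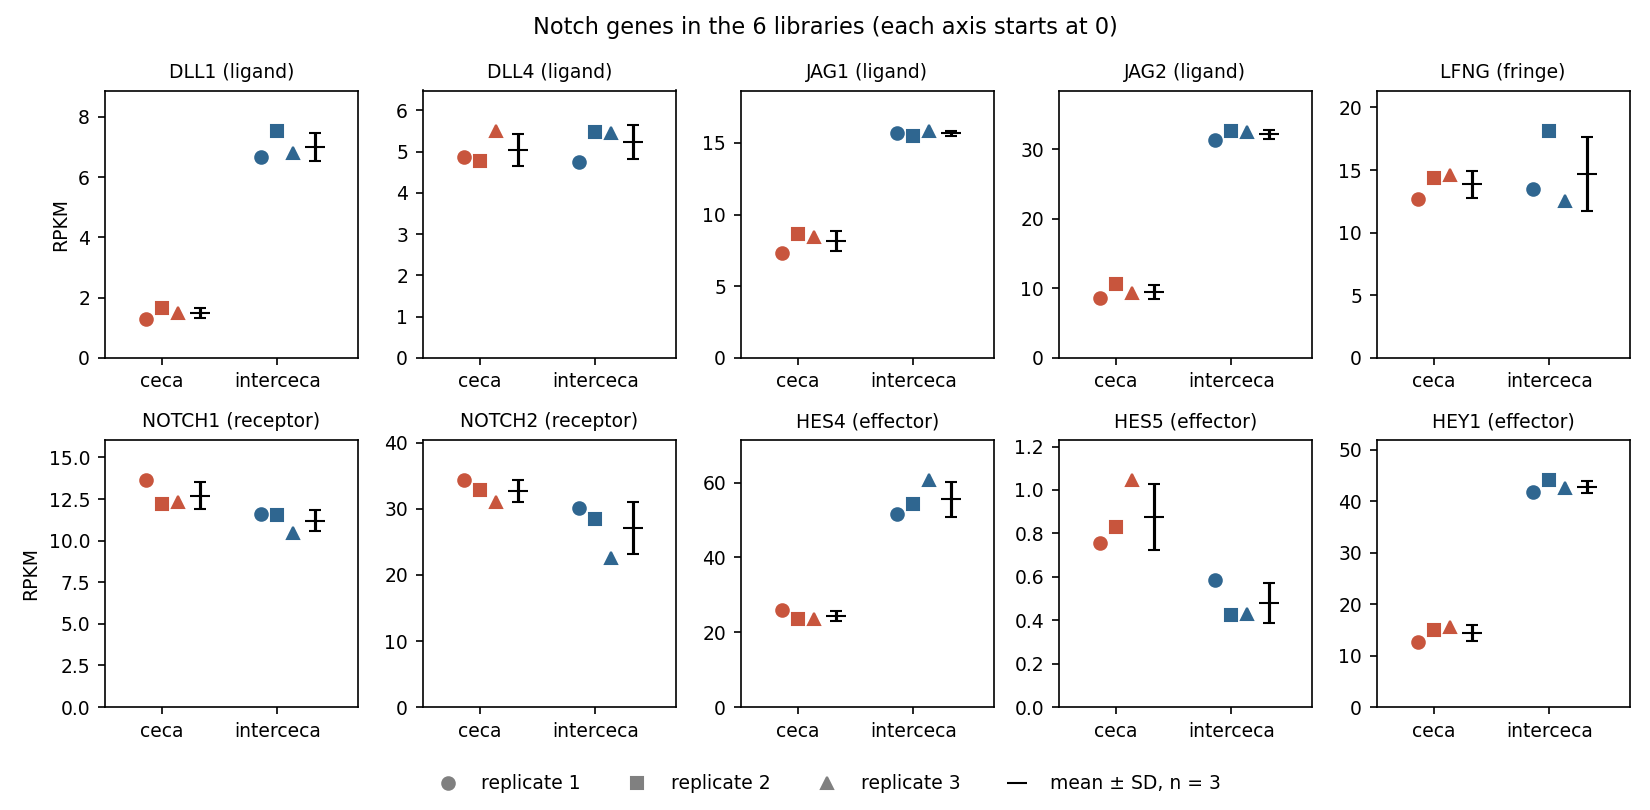
RPKM of the 10 Notch genes in single libraries, with ceca in red and interceca in blue, marker shapes for replicates 1 to 3 and the mean ± SD in black. The points of the tissues are widely separated in DLL1, JAG1, JAG2, HES4 and HEY1, close in NOTCH1 and NOTCH2, and mixed in DLL4 and LFNG, while every HES5 value is at or under 1.04 RPKM.

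Among the ligands, DLL1, a Delta-like ligand known for lateral inhibition in neural tissue, stood furthest from 0. It was at 1.31, 1.65 and 1.5 RPKM in ceca replicates 1 to 3 and at 6.66, 7.52 and 6.79 RPKM in interceca replicates 1 to 3. The highest ceca library was thus well below the lowest interceca library. The mean level was 4.70-fold lower in ceca, 1.49 ± 0.174 against 6.99 ± 0.466 RPKM (SD, n = 3 each). The log2 fold change was -1.92 ± 0.12 (SE, limma, adjusted p = 2.76e-05), and 1.33% of all genes tested had a more negative one. These values rest on 78 to 110 reads per library in ceca and 303 to 451 in interceca. In the RefSeq table for GRCg7b the DLL1 gene overlaps FAM120B, which went the other way, at 10.3 ± 0.498 RPKM in ceca against 8.47 ± 0.140 in interceca (log2 fold change 0.27 ± 0.07, limma adjusted p = 0.0252). Whether the authors' counting used the strand is not given in the sources used here, so reads shared with overlapping genes cannot be told apart.

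JAG2 was the ligand with the highest level in both tissues. Its RPKM were 8.63, 10.6 and 9.29 in ceca and 31.4, 32.6 and 32.5 in interceca, with no overlap and little spread among the interceca libraries. The mean of 9.51 ± 1.01 RPKM in ceca lay 3.38-fold below the 32.2 ± 0.683 RPKM of interceca (log2 fold change -1.71 ± 0.08 SE, limma adjusted p = 7.63e-06). JAG1, the other Jagged ligand, which is known from vascular smooth muscle and is required for bile duct formation in mammals, differed by a smaller amount. It was at 7.34, 8.63 and 8.45 RPKM in ceca and at 15.7, 15.5 and 15.8 RPKM in interceca. The ceca mean was 1.92-fold lower, 8.14 ± 0.699 against 15.7 ± 0.165 RPKM (log2 fold change -0.91 ± 0.08 SE, limma adjusted p = 0.000121). In the same RefSeq table JAG1 overlaps SLX4IP and a further protein-coding gene, and JAG2 overlaps a long noncoding RNA. No values are given here for these overlapping genes.

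DLL4, the Delta-like ligand known from arterial endothelium and sprouting vessels, had overlapping values. It was at 4.88, 4.78 and 5.5 RPKM in ceca and at 4.76, 5.47 and 5.46 RPKM in interceca. The log2 fold change was -0.05 ± 0.10 (SE, limma adjusted p = 0.778), with a 95% confidence interval of -0.28 to 0.19. Under quantile normalization it was 0.038.

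The makeup of the ligand pool therefore differed between the tissues. The summed level of the 4 ligands was 22.1, 25.7 and 24.7 RPKM in ceca and 58.5, 61.1 and 60.5 RPKM in interceca. JAG2 made up 39.3% ± 1.90 of that sum among ceca libraries and 53.6% ± 0.157 among those of interceca (SD, n = 3 each), and DLL1 made up 6.13% ± 0.281 against 11.6% ± 0.594. The share of DLL4 was 21.0% ± 2.02 in ceca and 8.71% ± 0.491 in interceca, and that of JAG1 was 33.6% ± 0.519 and 26.1% ± 0.742. Libraries of the tissues did not overlap in any of these shares, which do not depend on how libraries are scaled. Between DLL4 and DLL1 the order of levels turned round, since the DLL4 level was 2.89 to 3.73 times that of DLL1 in ceca libraries and 0.715 to 0.805 times in interceca libraries. The ratio of JAG2 to JAG1 was 1.10 to 1.23 in ceca and 2.00 to 2.11 in interceca.

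**Figure D2:**
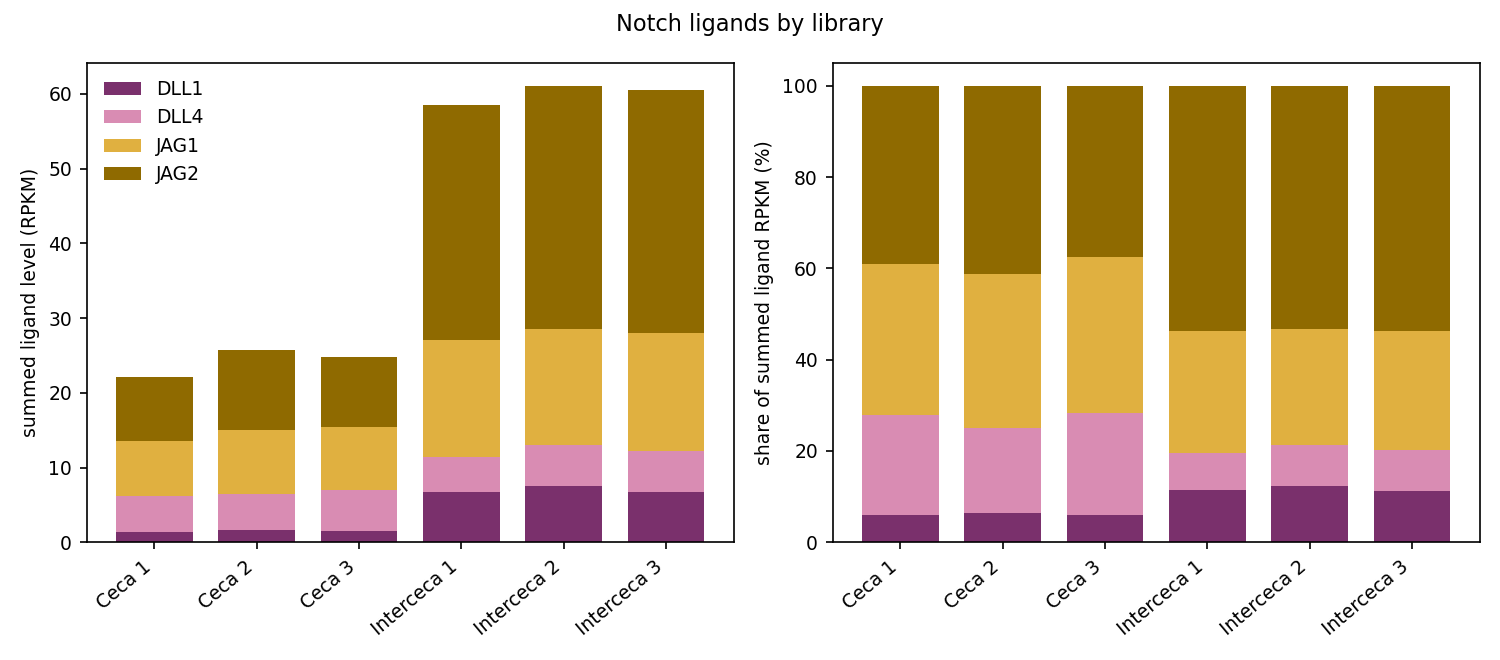
Stacked bars of DLL1, DLL4, JAG1 and JAG2 in each of the 6 libraries, as RPKM on the left and as a percentage of their sum on the right. The summed ligand level is 22.1 to 25.7 RPKM in ceca and 58.5 to 61.1 RPKM in interceca, and the JAG2 share is smaller and the DLL4 share larger in each ceca library.

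Paralogues of one family were also set against each other within libraries, which cancels library scaling, in 6 pairs. The log2 fold change of DLL1 was 1.87 below that of DLL4, a difference of -1.87, and that of JAG1 was 0.80 above that of JAG2. In both pairs the libraries of the tissues did not overlap. The exact two-sided permutation p was 0.1 for each, the smallest that 3 libraries against 3 can give, and 0.12 adjusted over the 6 pairs, so this design could not pass the threshold.

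The receptors were not lower in ceca. NOTCH2, the receptor with the higher level, was at 34.3, 32.8 and 31.1 RPKM in ceca and at 30.1, 28.5 and 22.6 RPKM in interceca. All ceca libraries lay above all interceca libraries, by a small margin except for interceca replicate 3, which was the lowest. The means were 32.7 ± 1.62 and 27.1 ± 3.93 RPKM (SD, n = 3 each), with a log2 fold change of 0.28 ± 0.10 (SE), a limma p of 0.0272 and an adjusted p of 0.0824. The 95% confidence interval, which is not adjusted for the number of genes, was 0.04 to 0.52. The adjusted p was 0.0142 with the replicate number as a block, 0.0353 with limma-voom and 0.041 when interceca replicate 1 was left out, and it ranged from 0.0142 to 0.187 over the 15 alternatives. Without interceca replicate 3 the log2 fold change was 0.16. The authors' deposited table gives NOTCH2 a log2 fold change of 0.27 and an FDR of 0.0259.

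NOTCH1 was at 13.6, 12.2 and 12.3 RPKM in ceca and at 11.6, 11.6 and 10.5 RPKM in interceca. Here too the tissues did not overlap, but the gap was narrow. The log2 fold change was 0.17 ± 0.08 (SE, limma adjusted p = 0.138), with a 95% confidence interval of -0.01 to 0.35. Limma-voom on the recovered reads gave it an adjusted p of 0.0477, and it ranged from 0.0477 to 0.329 over the alternatives. The authors' deposited table gives NOTCH1 an FDR of 0.105. NOTCH2 took 72.0% ± 0.747 of the summed level of NOTCH1 and NOTCH2 in ceca and 70.6% ± 1.94 in interceca, with overlapping libraries. The difference between the log2 fold changes of NOTCH1 and NOTCH2 was -0.10 (exact two-sided permutation p = 0.3, also 0.3 adjusted over the pairs).

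Set against NOTCH1 and NOTCH2, the listed ligands were scarcer in ceca. The summed ligand level was 0.462, 0.57 and 0.57 times the summed receptor level in ceca replicates 1 to 3. In interceca replicates 1 to 3 it was 1.40, 1.53 and 1.83 times the summed receptor level. The listed ligands thus stood below NOTCH1 and NOTCH2 in every ceca library and above them in every interceca library, on the RPKM scale. No rows were found for NOTCH3 and DLL3, so these sums do not give the total of all receptors or ligands.

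LFNG, the fringe enzyme, had overlapping values of 12.6, 14.4 and 14.6 RPKM in ceca and 13.4, 18.1 and 12.5 RPKM in interceca. Interceca replicate 2 was the highest of the 6 and the other interceca libraries lay near those of ceca. The log2 fold change was -0.07 ± 0.13 (SE, limma adjusted p = 0.755), with a 95% confidence interval of -0.37 to 0.24, and it was 0.088 without interceca replicate 2. Of the other fringe genes, RFNG had 19.3 ± 0.692 RPKM in ceca and 17.6 ± 0.538 RPKM in interceca (limma adjusted p = 0.126), and MFNG, too low to test, was at 0.156 ± 0.0728 and 0.311 ± 0.0776 RPKM (SD, n = 3 each).

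Of the effectors, HEY1, a repressor that acts downstream of Notch in vessels and many other tissues, was at 12.6, 15.0 and 15.5 RPKM in ceca. In interceca it was at 41.8, 44.0 and 42.6 RPKM, so that the tissues were far apart and the interceca libraries close to each other. The mean was 2.98-fold lower in ceca, 14.4 ± 1.57 against 42.8 ± 1.15 RPKM (log2 fold change -1.55 ± 0.08 SE, limma adjusted p = 1.31e-05).

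HES4, a relative of the Drosophila gene hairy whose chick form, hairy1, is known for cycling in the presomitic mesoderm, was the effector with the highest level. It was at 25.8, 23.7 and 23.5 RPKM in ceca and at 51.7, 54.1 and 60.5 RPKM in interceca. The tissues did not overlap, and the ceca mean was 2.28-fold lower, 24.3 ± 1.31 against 55.5 ± 4.56 RPKM (log2 fold change -1.17 ± 0.07 SE, limma adjusted p = 2.53e-05). The RefSeq table also gives HES1 as a synonym of HES4, but the files hold a separate row named HES1. That row was lower in ceca by a smaller amount, at 14.1 ± 1.46 against 18.9 ± 0.872 RPKM (log2 fold change -0.41 ± 0.08 SE, limma adjusted p = 0.00803). How reads of such related genes were divided between the rows is not given in the sources used here.

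HES5, an effector best known from neural progenitors, was the one Notch gene below the filter, and the direction of its values was opposite to those of HES4 and HEY1. It was at 0.753, 0.83 and 1.04 RPKM in ceca and at 0.584, 0.424 and 0.431 RPKM in interceca. These levels rest on 22, 27 and 32 reads in ceca and 13, 12 and 14 reads in interceca. All ceca libraries lay above all interceca libraries, and the difference on the log2(RPKM + 0.5) scale was 0.49, with no test at the filter used. Fitted without the filter, the limma adjusted p was 0.0369. The authors' deposited table gives HES5 a log2 fold change of 0.89 and an FDR of 0.056. HES5 overlaps PRDM16 and a further protein-coding gene in the RefSeq table. PRDM16, also too low to test, stood at 0.453 ± 0.128 RPKM in ceca and 0.881 ± 0.0343 in interceca.

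Within libraries, the log2 fold change of HES4 differed by -1.66 from that of HES5, and that of HES5 was 2.04 above that of HEY1. With 0.1 in place of 0.5 added before the log, these differences were -1.93 and 2.32. With 1 added they were -1.50 and 1.86. The log2 fold change of HES4 was 0.38 above that of HEY1, and 0.24 above it without ceca replicate 1. In all 3 pairs the libraries of the tissues did not overlap, with an exact two-sided permutation p of 0.1 and 0.12 adjusted over the pairs. HES4 made up 61.5% ± 3.91 of the summed effector level in ceca and 56.1% ± 2.01 in interceca, HEY1 36.3% ± 3.63 and 43.4% ± 1.95, and HES5 2.21% ± 0.354 and 0.489% ± 0.115 (SD, n = 3 each).

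**Figure D3:**
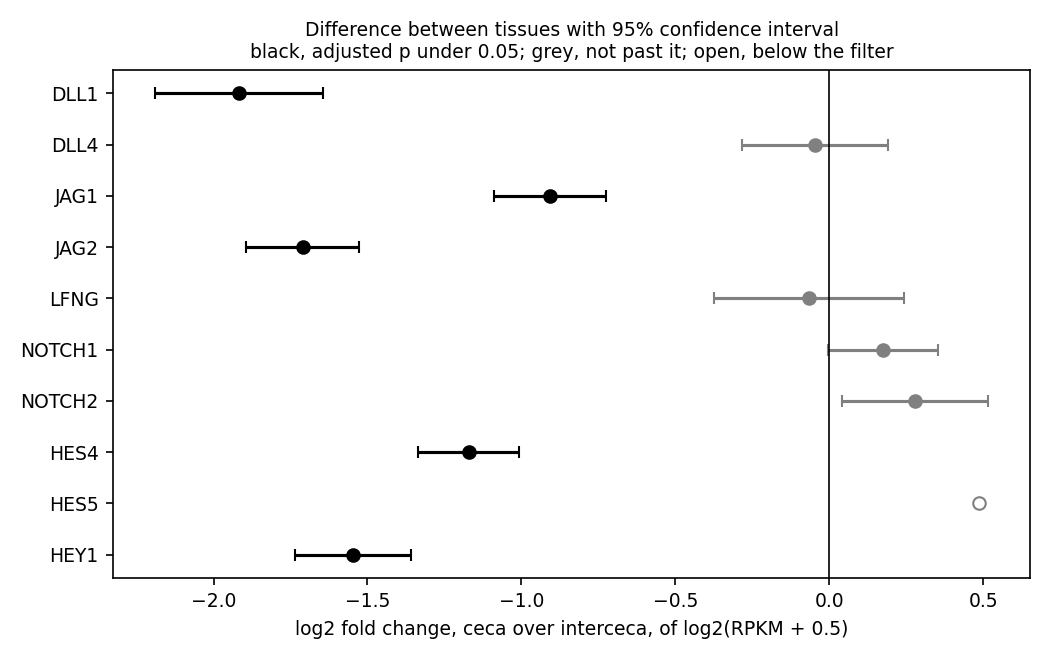
Log2 fold change of each Notch gene, ceca over interceca, with its 95% confidence interval, black where the adjusted p passed the threshold and grey where it did not. DLL1, JAG2, HEY1, HES4 and JAG1 lie between -1.92 and -0.91, and HES5, drawn open without an interval because it was not tested, lies at 0.49.

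The order of the levels differed between the tissues. In ceca NOTCH2 was the highest Notch gene, followed by HES4, then HEY1, LFNG and NOTCH1, whose neighbouring ranges overlapped. After these came JAG2, JAG1, DLL4, DLL1 and HES5, each range apart from the next. The ranges of JAG2 and JAG1 all but met, with the lowest JAG2 library at 8.629 RPKM and the highest JAG1 library at 8.625 RPKM. In interceca HES4 and HEY1 came before JAG2 and NOTCH2, then JAG1 and LFNG with overlapping ranges, then NOTCH1, DLL1, DLL4 and HES5. Of the 10 genes, 5 were lower in the authors' deposited table at an FDR under 0.05, the 5 genes that limma called, where 11.1% of all its genes were, and NOTCH2 was higher, where 9.8% were.

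Other genes of the pathway were taken from a list of 55, of which 46 were found and 44 tested. Of these, 6 were lower in ceca (13.6%, beside 14.1% of all genes tested), 7 were higher (15.9%, beside 13.5%) and 31 did not pass, and the median log2 fold change was 0.03. These shares are near those of all genes, so the called genes below are described one by one and not as a change of the list. KAT2B, a histone acetyltransferase that works with the Notch transcription complex, was lower at 2.79 ± 0.104 against 6.63 ± 0.646 RPKM (log2 fold change -1.11 ± 0.11, limma adjusted p = 0.000191). DNER, a Delta-like and Notch-like receptor of neurons, was lower at 0.817 ± 0.450 against 3.18 ± 1.03 RPKM (-1.50 ± 0.29, limma adjusted p = 0.00591). HES1 and the ubiquitin ligase gene DTX4 (-0.32 ± 0.06) were lower too. Among the genes higher in ceca were the corepressor gene CTBP2, at 55.7 ± 1.43 against 40.4 ± 0.845 RPKM (0.46 ± 0.04), the coactivator gene CREBBP (0.31 ± 0.08) and FBXW7 (0.26 ± 0.07), whose product marks the active receptor for breakdown.

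The count of 7 higher genes was 3 without ceca replicate 1, 2 or 3 or interceca replicate 2, and 2 without interceca replicate 3. The count of 6 lower genes was 4 without interceca replicate 2. CREBBP had an adjusted p of 0.0752 without ceca replicate 1, 0.078 without ceca replicate 2 and 0.0571 without interceca replicate 3. For FBXW7 it was 0.0711 or 0.0874 when ceca replicate 1 or 3 was left out, and 0.0856 or 0.0799 when interceca replicate 2 or 3 was.

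Genes of the core machinery that carries the signal from receptor to nucleus (RBPJ, the MAML genes, PSEN2, NCSTN, APH1A, ADAM10 and ADAM17) did not pass the threshold. RBPJ, the DNA-binding partner, had 20.4 ± 0.797 RPKM in ceca and 18.2 ± 2.33 RPKM in interceca (limma adjusted p = 0.245). For the coactivator genes MAML1, MAML2 and MAML3 the log2 fold changes came to 0.024, 0.24 and -0.004. For the secretase genes PSEN2, NCSTN and APH1A they came to 0.20, 0.07 and -0.0029. The proteases ADAM10 and ADAM17, which make the outer cut, had log2 fold changes of -0.13 and 0.13 (limma adjusted p = 0.0918 and 0.0701). With the replicate block, the adjusted p of ADAM10 was 0.0468. A pair of genes known to respond to Notch also did not pass, the feedback gene NRARP at 8.61 ± 1.40 against 11.3 ± 1.71 RPKM (adjusted p = 0.101) and the effector gene HEYL at 3.99 ± 0.831 against 6.02 ± 1.29 RPKM (adjusted p = 0.0634), both with overlapping libraries. Without interceca replicate 3 the adjusted p was 0.0434 for NRARP and 0.0328 for HEYL, and that of HEYL was 0.0393 without ceca replicate 3. HES6 was too low to test, at 0.0033 ± 0.0057 RPKM in the ceca and 0.0527 ± 0.0137 in the interceca.

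Markers of the cell types that carry Notch components differed between the tissues as well, and their part in the Notch values was not tested. In these bulk samples fewer cells of a type and less RNA per cell cannot be told apart. Of 15 epithelial markers tested, 12 were lower in ceca (80%, beside 14.1% of all genes tested) and 1, CDX2, was higher (6.67%, beside 13.5%). Their median log2 fold change was -1.94. The summed level of the 20 epithelial markers found was 167 to 247 RPKM in ceca libraries and 612 to 917 RPKM in interceca libraries. GUCY2C, HNF4A and CLDN1 were among those with the smallest p, with log2 fold changes of -4.15, -2.28 and -3.42. ESRP1, also called lower, was under 1 RPKM in every ceca library and passed the filter through interceca alone. The call of CDX2 (0.99 ± 0.24, adjusted p = 0.0171) was lost without ceca replicate 2 or 3 or interceca replicate 2 or 3, with adjusted p of 0.056, 0.065, 0.0539 and 0.0586.

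Smooth muscle markers were lower in 10 of 11 tested (90.9%, beside 14.1% of all genes tested) and did not pass in 1. Their median log2 fold change was -1.04 and their summed level 475 to 518 RPKM in ceca against 894 to 909 in interceca. TAGLN, MYH11, MYOCD and DES had the smallest p there, with log2 fold changes of -2.42, -2.56, -1.13 and -1.04. Markers of mural cells, the cells around vessels, were lower in 3 of 6 tested (50%), ABCC9 (-1.58), MCAM (-0.42) and ANGPT1 (-0.53). Their summed level was 103 to 110 RPKM in ceca and 135 to 146 in interceca. ANGPT1 kept its call when interceca replicate 1 was left out, and lost it without any of the other 5 libraries, at adjusted p of 0.061 to 0.114.

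Endothelial markers belong to the cells in which DLL4 is best known. Of 19 tested, 3 were higher in ceca (15.8%, beside 13.5% of all genes tested) and 16 did not pass, the median log2 fold change was 0.05, and the summed level was 229 to 248 RPKM in ceca and 200 to 244 in interceca. The 3 were FLT4 (0.41 ± 0.08), FLT1 (0.48 ± 0.12) and CDH5 (0.24 ± 0.07). Leaving out ceca replicate 1 or 3 put the adjusted p of FLT1 at 0.0576 or 0.0606, and leaving out interceca replicate 1 or 3 put it at 0.0517 or 0.0584. That of CDH5 was 0.0482 with all libraries and 0.0598 to 0.122 without each library but interceca replicate 2. The count of 3 was 1 without ceca replicate 1 or 3 or interceca replicate 3.

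Neuronal markers were lower in 4 of 14 tested (28.6%, beside 14.1% of all genes tested) and higher in 1 (7.14%, beside 13.5%). Their median log2 fold change was -1.25, with a summed level of 824 to 889 RPKM in ceca and 963 to 1041 in interceca. Most of that sum was TUBB3, at 765 ± 64.4 RPKM in ceca and 855 ± 10.1 in interceca, which did not pass (-0.17). The markers called lower were NEFL (-1.80), NEFM (-1.79), GAL (-1.27) and ISL1 (-0.66), and DCX (0.52) was called higher. The 4 lower were 0 without ceca replicate 3, 2 without interceca replicate 1 or 3 and 9 without ceca replicate 2, and the 1 higher was 2 without ceca replicate 1. Enteric neural crest markers were lower in 3 of 7 tested (42.9%) and higher in 1 (14.3%), with a median log2 fold change of -0.90. Their summed level was 15.5 to 25.2 RPKM in ceca and 23.1 to 27.3 in interceca. The lower ones were S100B (-0.91), EDNRB (-0.89) and TFAP2B (-1.42). S100B was under 1 RPKM in every ceca library, so it passed the filter through interceca alone. NGFR was higher, at 11.7 ± 1.51 against 5.81 ± 0.856 RPKM (0.95 ± 0.13, limma adjusted p = 0.00113), the smallest p of the crest list. The 3 lower crest markers were 5 with the replicate block and without ceca replicate 2, and 1 without interceca replicate 2 or 3. The crest regulator SOX10 was at 0.2, 0.932 and 1.24 RPKM in ceca replicates 1 to 3 and at 1.26, 2.16 and 1.91 RPKM in interceca. It did not pass (limma adjusted p = 0.0931, and 0.0156 with the replicate block). Ceca replicate 1 was also the lowest library for DLL1, JAG1, JAG2 and HEY1, while HES4 had its highest ceca value there. That library was the lowest for the epithelial markers GUCY2C, HNF4A, CLDN1 and EPCAM too, though not for SOX9. Without ceca replicate 1 the same 5 Notch genes were called lower, with DLL1 at a log2 fold change of -1.85 and HEY1 at -1.46. Mesothelial markers were higher in 5 of 7 tested (71.4%, beside 13.5% of all genes tested) and lower in 2 (28.6%, beside 14.1%). Their summed level was 359 to 379 RPKM in ceca and 132 to 145 in interceca. The largest part of the ceca sum was WT1, whose mean RPKM of 188 ± 13.9 there compares with 27.8 ± 3.45 for interceca (2.74). The other markers called higher had log2 fold changes of 0.52 to 0.94. MSLN (-2.27) and UPK1B (-2.54) were the lower ones. Both stayed under 1 RPKM in every ceca library and passed the filter through interceca alone. Of 6 tested markers of blood and leukocytes 1, CD74, was lower (16.7%, near the 14.1% of all genes tested), and HBAA, HBAD and SLC4A1 were listed at 0. HBZ, a globin gene, has 2 rows in the files, of which 1 was listed at 0 and the other was at 287 ± 14.6 RPKM in ceca and 245 ± 32.3 RPKM in interceca (SD, n = 3 each) and did not pass. From the list of proneural and ID genes, 5 of 12 were found, 3 were tested and 1 (33.3%), ID2, was higher (0.28 ± 0.06, adjusted p = 0.012, and 0.0549 without ceca replicate 3). That count was 2 with the replicate block and without interceca replicate 2, while NEUROD4 was listed at 0.

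**Figure D4:**
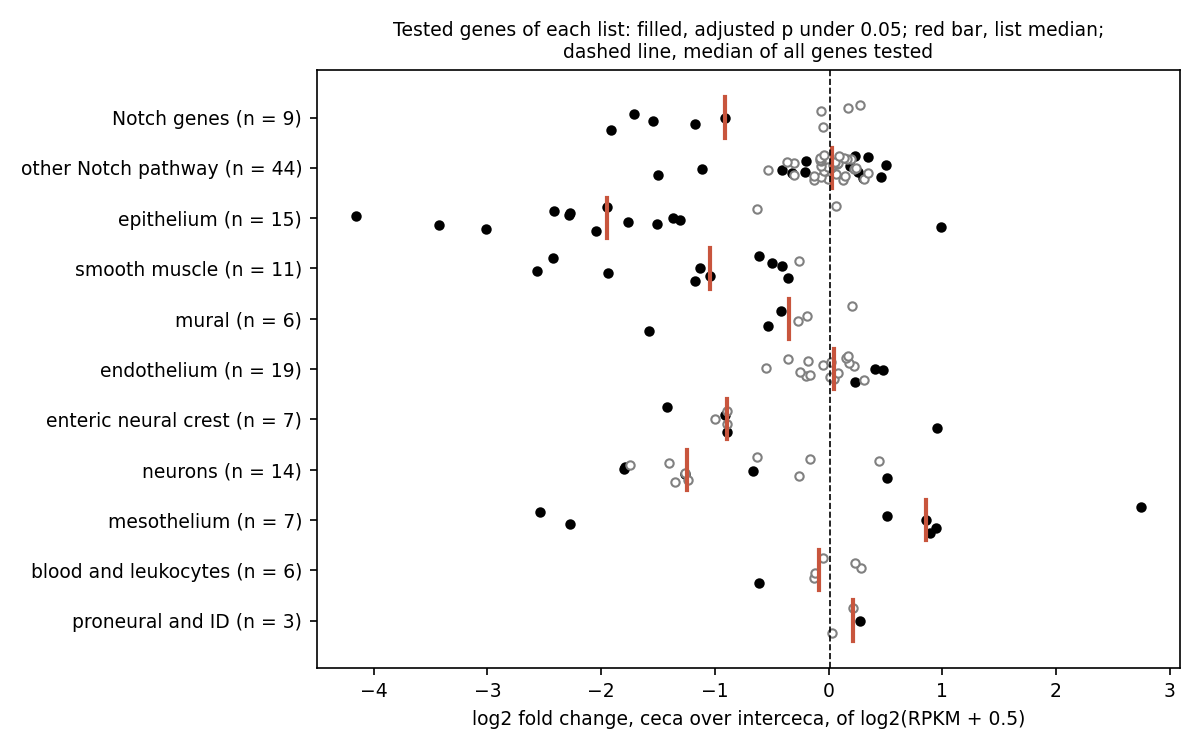
Log2 fold change, ceca over interceca, of the tested genes of each list, filled where the adjusted p passed the threshold, with the list median as a red bar and the median of all genes tested as a dashed line. The medians of the Notch genes, epithelial and smooth muscle markers lie at -0.91, -1.94 and -1.04, while those of the other Notch pathway genes and of the endothelial markers lie at 0.03 and 0.05.

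Genes whose 6 values were most like those of a Notch gene were ranked by Pearson r of log2(RPKM + 0.5) over the 6 libraries, among 7923 genes with a symbol and a mean of at least 5 RPKM. For DLL1 they were BLVRA, JAG2 and HHIPL1 and for JAG2 they were RGL1, PGM5 and ACTN1, all with r of 0.998 or above. For JAG1 they were RAP1A, NT5C3A and CAPN5, for HEY1 TF, ARHGAP17 and RAP1A, and for HES4 SDC4, KIF25 and SLC7A6, with r of 0.997 or above. Of the 7923 genes, 485 had an r over 0.95 with DLL1 and 450 with HES4, and the points share the split between the tissues. With NOTCH1, TET3 had the highest r (0.998), with NOTCH2 WWP2 (0.994), and with DLL4 SUPT4H1 (0.998), where 8 genes exceeded 0.95. LFNG had 2 such genes, SLC39A13 and MRPS36, both with r of 0.964.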

How the data were processed

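RNA was sequenced from 3 ceca and 3 interceca libraries, made with a strand-specific kit after Trizol extraction, per the labels' protocols. The authors deposited RPKM for each library, and a table of the series that repeats these columns and adds their own log2 fold change, p-value, FDR and -log10 of the FDR, per the file headers. The tools bcl2fastq, STAR, HTSeq and edgeR and the build galGal4 are named in the submitters' processing notes, with roles and versions not given in the sources used here. All 6 single files equal the table. The column total, in 1 row that names no gene, was dropped, and for 3386 of the 17108 genes the symbol column repeats the Ensembl identifier.

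RPKM are not counts, so log2(RPKM + 0.5) was tested with limma 3.58.1 in R 4.3.3 (two-sided, trended eBayes, no covariate besides tissue, 4 residual and 3.85 prior degrees of freedom), on the 10678 genes that reached 1 RPKM in 3 or more libraries. Adjustment was by Benjamini-Hochberg over all of them. A gene could reach that level in a single tissue and still be tested. Whole reads were recovered from the RPKM steps for 100% of the 14080 genes above 0, within 0.01 read. They were used for depth and for limma-voom, which counts as an alternative. A gene above 0 in only 1 library fits whole reads whatever its value, and one above 0 in few libraries fits easily. For such genes the 100% is no check on the recovered reads. A count of 0 allows up to 3 reads, 1.32e-05% to 1.91e-05% of a library, for counting error only. Differences between paralogues were tested by exact permutation. Tables and plots used pandas 2.3.3, scipy 1.17.1, numpy 2.4.6 and matplotlib 3.10.9 under Python 3.11.15.

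The members and lists were chosen with earlier results of these data known. Named genes are all 10 members, up to 4 per direction with the smallest p from each list, and the 3 genes most like each tested member. RBPJ, MAML1 to MAML3, PSEN2, NCSTN, APH1A, ADAM10, ADAM17, NRARP, HEYL, HES6, RFNG, MFNG, SOX10, EPCAM, SOX9, TUBB3 and the genes that overlap members were named after their values were seen. ESRP1 was named after its values were seen too. Some genes that the rule takes are left out of the text. No sequence or coordinates are given, as the table of gene names is for another assembly than the files.

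Both tissues have replicates 1 to 3 in the labels, which do not say that a number marks a shared source. Across genes, libraries with the same number deviated together from their tissue's mean, with r of 0.364, 0.227 and 0.213. Other pairs had r of -0.238 to 0.031. Deviations within a tissue cancel in sum, so positive values in some pairs push others toward negative ones. What libraries with the same number share is not given in the labels and was not tested. The reported fit and permutation tests do not pair libraries by replicate number. The fit with the replicate block is given where it changes a call among the 10 Notch genes, and for some genes of the lists. With it, 8 other Notch pathway genes were lower and 8 higher, where 17.7% of all genes tested were lower and 17.6% higher. Lower markers were then 13 for epithelium, 11 for smooth muscle and 6 for neurons. Higher ones were 2 for neurons and 1 for blood.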

Additional observations from a re-analysis of the deposited data

How the results depend on the processing

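The 15 alternatives were another pseudocount (0.1 or 1), no filter or one at 5 RPKM, a replicate block, quantile or median-of-ratios scaling, no trend, limma-voom on recovered reads, and leaving out each library in turn with the genes tested kept the same. DLL1, JAG1, JAG2, HES4 and HEY1 were called lower under all 15, at adjusted p of at most 0.00103, and their count stayed at 5. At the filter of 5 RPKM, DLL1 was kept only through its interceca libraries, as its ceca values were 1.31 to 1.65 RPKM. The call of DLL1 at that filter is no separate support. The count of Notch genes called higher, 0 as reported, was 1 with no filter (HES5), 1 with the replicate block (NOTCH2) and 2 with limma-voom (NOTCH1 and NOTCH2). Leaving out a library gave 0 to 1. The replicate block changed no other call among the 10 genes. DLL4 had a log2 fold change of 0.038 under quantile normalization and LFNG one of 0.088 without interceca replicate 2 (range when a library was left out -0.17 to 0.088), both of opposite sign to the reported values and neither called. Over all genes the count higher in ceca was 947 to 1314 and the count lower 1163 to 1426 when a library was left out, the lowest of 947 without ceca replicate 3. The other Notch pathway genes gave 2 to 7 higher and 4 to 7 lower. The cause was not tested, beyond the smaller number of samples in these fits. No direction turned among the 6 paralogue pairs. With libraries paired by replicate number, an exact sign-flip test cannot go below 0.25. The median over all genes tested moved by less than 0.1 under each scaling. At 12 to 32 reads per library, HES5 is the gene that depth limits most.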
